A study of Mus musculus with 16 samples.

Results

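The IgLON family comprises 5 genes, Lsamp, Ntm, Opcml, Negr1 and Iglon5, out of 49671 genes counted in single sensory neurons of mouse dorsal root ganglia (DRG). They were read in the wells that held at least 10000 unique molecular identifiers (UMIs, 1 per captured RNA molecule) and at least 100 CPM (UMIs per 1000000 UMIs of the same well or sum) of Avil and Isl1 together, both genes of postmitotic sensory neurons. This rule kept 799 of 1536 wells, 434 of 960 at embryonic day (e) 15.5 and 365 of 576 at postnatal day (p) 1. Of these, 695 wells had at least 200 CPM of Pvalb and Runx3 together and are called proprioceptors here (340 at e15.5, 355 at p1), and 104 had less and are called other sensory neurons (94 and 10). None of the IgLON genes took part in these thresholds. The family was chosen with earlier results of these wells known, in which Ntm was a leading gene of one group of e15.5 proprioceptors, and Ntm and Lsamp were paired to ask whether single proprioceptors hold both, so that their joint pattern, and the level of Ntm between groups of e15.5 proprioceptors, are described without a test.

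IgLONs are adhesion proteins built of immunoglobulin domains and held on the outer face of the neuronal membrane by a glycosylphosphatidylinositol (GPI) anchor. They bind each other in like and unlike pairs on the same and on opposing cells, they influence neurite outgrowth and synapse formation, and metalloproteases can release them from the membrane. Proprioceptors are the DRG neurons that report muscle stretch and tension, and at these ages their axons are reaching muscles and motor neurons.

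The study compared proprioceptors before and after birth and searched for genes that mark the muscle group each innervates. The e15.5 group held 10 CEL-Seq2 libraries of tdTomato-positive neurons sorted from PvtdTom embryos, in which an artificial-chromosome transgene drives tdTomato from the parvalbumin promoter. The p1 group held 6 libraries labelled Trpv1Cre; PvFlp; Ai65 and PvCre; Ai14, in which the reporter needs recombinases driven from the Trpv1 and parvalbumin promoters together, or from the parvalbumin promoter alone, and the neurons were picked by hand. No group was perturbed, and the neurons of both groups were isolated by a tdTomato reporter. The labels give no axial level for a library and do not say which p1 library came from which line. Age, isolation and mouse line changed together, so their shares in a difference between the groups cannot be told apart. Per the paper, thoracic and lumbar ganglia were dissected separately at both ages. Nothing in the labels says that libraries came from separate animals. The p-values therefore measure the spread between libraries, which may be technical and may also hold axial level and, at p1, mouse line.

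Library totals ran from 3701900 to 9299431 UMIs at e15.5 and from 386517 to 8814472 at p1, with 9 to 70 and 11 to 83 proprioceptors per library. The median proprioceptor held 111228 UMIs at e15.5 and 55969 at p1, and p1 library 3 stood apart with 11 proprioceptors of 12171 UMIs at the median. All libraries use the same 96 well numbers by design, and 0 wells had counts identical to another well. Nearest the neuron threshold, Avil and Isl1 summed to 94.9 CPM just under and 101 CPM just over it at e15.5, and to 99.3 and 111 CPM at p1. All 4 proprioceptor markers (Pvalb, Runx3, Etv1, Ntrk3) were found in most proprioceptors of both ages, and summed to 4244 to 4657 CPM across e15.5 libraries and 3201 to 5099 across p1 libraries. The 5 sensory neuron genes (Avil, Isl1, Tubb3, Prph, Snap25) summed to 4841 to 5901 and 3713 to 4643 CPM. Glial genes summed to 186 to 980 CPM and 135 to 673 CPM in the same libraries, connective tissue genes to 24.98 to 635 and 98.3 to 304, nociceptor genes to 32.3 to 262 and 39.7 to 169, mechanoreceptor genes to 69.9 to 193 and 125 to 204, and cycling genes to 58.5 to 158 and 41.9 to 54.5. Of the mechanoreceptor genes, Maf and Necab2 were found in most proprioceptors of both ages. Mafa was at 0 in the proprioceptors of both ages, but also in the other sensory neurons at e15.5, so its absence does not separate the classes there.

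In the mouse genome (GENCODE annotation of GRCm38) Lsamp lies on the plus strand at chr16:39984361-42181679, Negr1 on the plus strand at chr3:156561794-157316445 and the far shorter Iglon5 on the minus strand at chr7:43472904-43490075. Opcml, on the plus strand at chr9:27790775-28925410, and Ntm, on the minus strand at chr9:28994750-29963141, are neighbours whose 3′ ends face each other across 69339 bases that hold 0 other protein-coding genes. RefSeq (GRCm38.p6) lists 2 starts each for Ntm and Lsamp, the pair on which the single-neuron pattern turns, and the bases just before each start are printed 5′ to 3′ on the gene's strand. For Ntm these are chr9:29413453-29413702 (upstream start) and chr9:29412686-29412935 (downstream start), and for Lsamp chr16:39984114-39984360 (upstream start) and chr16:41532576-41532825 (downstream start).
Ntm upstream start: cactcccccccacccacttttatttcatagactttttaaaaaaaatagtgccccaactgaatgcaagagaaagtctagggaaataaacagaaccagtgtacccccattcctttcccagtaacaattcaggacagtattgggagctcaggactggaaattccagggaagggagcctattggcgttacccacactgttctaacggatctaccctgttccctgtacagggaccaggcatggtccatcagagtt
Ntm downstream start: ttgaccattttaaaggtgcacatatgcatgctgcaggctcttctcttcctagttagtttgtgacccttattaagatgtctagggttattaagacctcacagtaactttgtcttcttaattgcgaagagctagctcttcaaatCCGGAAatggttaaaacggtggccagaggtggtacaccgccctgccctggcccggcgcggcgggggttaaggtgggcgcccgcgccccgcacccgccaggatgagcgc
Lsamp upstream start: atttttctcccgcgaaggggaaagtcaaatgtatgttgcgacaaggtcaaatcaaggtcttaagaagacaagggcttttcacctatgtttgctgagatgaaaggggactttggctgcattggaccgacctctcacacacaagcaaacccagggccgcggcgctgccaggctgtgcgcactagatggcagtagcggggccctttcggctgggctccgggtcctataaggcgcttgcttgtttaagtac
Lsamp downstream start: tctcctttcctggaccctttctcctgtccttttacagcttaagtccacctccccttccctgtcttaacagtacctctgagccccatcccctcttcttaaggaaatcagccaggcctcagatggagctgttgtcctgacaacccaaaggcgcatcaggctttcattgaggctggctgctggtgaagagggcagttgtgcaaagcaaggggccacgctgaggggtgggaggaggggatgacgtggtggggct
Capitals mark the 1 match found to the motifs searched on both strands, an ETS core (CCGGAA) before the downstream Ntm start. The ETS core was present in 12.1% of the 32536 RefSeq windows, the RUNX core (TGTGGT) in 13.96% and a LIM homeodomain core (CTAATG) in 6.33%. The match is a description of letters only, and UMIs counted at the 3′ end do not tell which start a neuron used.

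All 5 IgLON genes were detected in proprioceptors of both ages, and all 5 were higher at p1 than at e15.5. Lsamp, the limbic system-associated membrane protein, ranged over the 10 e15.5 libraries from 148 to 304 CPM with a median of 187, and over the 6 p1 libraries from 181 to 539 CPM with a median of 391. At p1, 4 of 6 libraries lay above every e15.5 library, and p1 library 2 lay within the e15.5 range. The fitted rise was 2.14-fold (log2 1.10 ± 0.19 SE, edgeR quasi-likelihood adjusted p = 4.18e-05). CPM here are per library, from the summed UMIs of its proprioceptors, and in such sums fewer cells of a kind and less RNA per cell cannot be told apart.

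Neurotrimin (Ntm) had the widest range in CPM of the family at both ages. Its e15.5 libraries ran from 19.2 to 392 CPM with a median of 153, and its p1 libraries from 171 to 909 CPM with a median of 425. At p1, 3 of 6 libraries exceeded all e15.5 libraries, and the ranges overlapped. The fitted rise was 3.75-fold (log2 1.91 ± 0.44, adjusted p = 0.000885).

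Opcml, the opioid-binding protein that is the chromosomal neighbour of Ntm, separated the ages. No e15.5 library exceeded 115 CPM, the median was 46.8, and e15.5 library 3 had 0 UMIs in 11 proprioceptors, which allows up to 2.06 CPM. The 6 p1 libraries lay between 229.7 and 351 CPM with a median of 275, so the ranges did not overlap. The share of all tested genes whose ages did not overlap was not counted. The fitted rise was 6.12-fold (log2 2.61 ± 0.46, adjusted p = 5.40e-05).

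The other two members were the lowest. Negr1, the neuronal growth regulator, had 15.4 to 41.9 CPM (median 26.2) at e15.5 and 25.1 to 57.5 CPM (median 40.5) at p1, with 2 of 6 p1 libraries above the e15.5 range. Iglon5, known as the antigen of an autoimmune sleep disorder, had 11.7 to 26.1 CPM (median 15.2) at e15.5 and 13.8 to 42.9 CPM (median 26.2) at p1, with 3 of 6 above. Both sets of ranges overlapped, and the fitted rises were 1.77-fold for Negr1 (log2 0.82 ± 0.20, adjusted p = 0.00112) and 2.05-fold for Iglon5 (log2 1.04 ± 0.22, adjusted p = 0.000456).

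**Figure D1:**
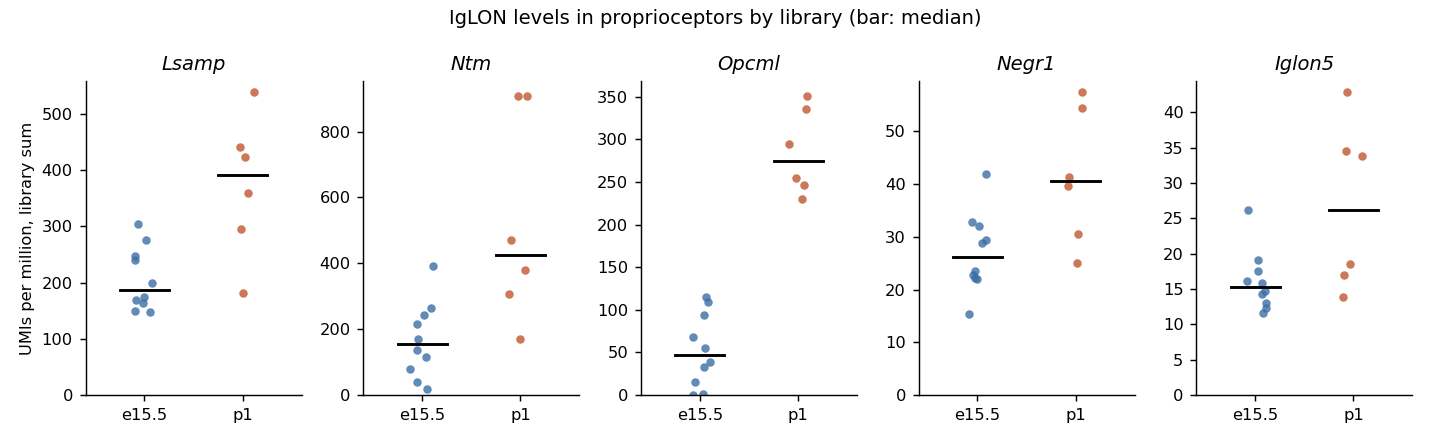
Each panel plots 1 IgLON gene in CPM (linear axis from 0, scaled per gene) for the proprioceptors of each library, 10 points at e15.5 and 6 at p1, with the median as a bar. Opcml is the gene whose 2 ages do not overlap (at most 115 against at least 229.7).

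Among the 13950 genes tested between the ages, 30.6% were called higher and 32% lower at p1, so 5 of 5 IgLON genes higher stands against a background in which most genes moved. The median log2 fold change was 1.10 over the IgLON genes and -0.03 over all genes tested. Without any 1 of the 16 libraries, all 5 remained called. The libraries also differed in make-up by the Tox and Gabrg1 classes defined below. At p1, library 2 had Ntm at 908 and Lsamp at 181 CPM with 62.3% of its proprioceptors in the Gabrg1 class, library 5 had 909 and 359 CPM with 22.1%, and library 6 had 469 and 539 CPM with 0% in the Gabrg1 class and 55.8% in the Tox class. Wells rich in glial genes could be left out with all 5 genes still called. Within Tox-class wells, a split added after seeing the data, Lsamp (log2 1.37, edgeR adjusted p = 3.43e-05), Opcml (4.46, 4.10e-11) and Iglon5 (1.07, 0.00905) rose. Negr1 did not pass there (0.40, adjusted p = 0.238). Within Gabrg1-class wells Opcml (log2 1.18, adjusted p = 0.0133) and Iglon5 (1.26, 0.0285) rose. There Lsamp (0.65, adjusted p = 0.104) and Negr1 (0.59, adjusted p = 0.151) did not pass. Ntm was at log2 2.42 in the Tox class and 1.23 in the Gabrg1 class. These Ntm values are given with no test, since they use its e15.5 class levels. The Opcml values use e15.5 class levels too, and Opcml moved with Ntm in those wells, as given below.

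The order of median levels was Lsamp, Ntm, Opcml, Negr1 and Iglon5 at e15.5, where the library ranges of every pair of neighbours overlapped, and Ntm, Lsamp, Opcml, Negr1 and Iglon5 at p1, where the ranges of Opcml and Negr1 were apart and the other neighbours overlapped. Each UMI counts 1 molecule, so these levels need no correction for gene length.

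Single proprioceptors spread more widely than libraries. At e15.5 the median well had 144 CPM of Lsamp and 77.9 of Ntm, but 5.38 of Opcml, 17.0 of Negr1 and 12.1 of Iglon5. At p1 the medians were 395 for Lsamp, 456 for Ntm, 287 for Opcml, 34.9 for Negr1 and 23.7 for Iglon5. Some deep wells were empty at e15.5, where of 194 proprioceptors with at least 100000 UMIs, 77 had no Opcml UMI and 21 had no Ntm UMI. Among 91 such wells at p1, 0 lacked either gene.

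To compare shares of wells at equal depth, each well was thinned to 10000 UMIs. The share with an Opcml UMI was then 28.5% at e15.5 and 92.4% at p1, against 51.8% and 98.3% without thinning. For Lsamp the thinned shares were 68.2% and 89.0% (91.8% and 97.5% unthinned), for Ntm 53.8% and 87.0% (80.9% and 97.5%), for Negr1 21.8% and 36.9% (75% and 81.7%) and for Iglon5 19.1% and 27.9% (69.7% and 72.7%). In the 437 e15.5 wells under the neuron threshold, which had 26755 UMIs at the median and 28998 CPM of connective tissue genes, unthinned shares were 40.5% for Lsamp, 48.5% for Ntm, 18.3% for Opcml, 31.8% for Negr1 and 8.01% for Iglon5. Pooled levels in those wells were 68.1 CPM for Lsamp, 92.2 for Ntm, 13.7 for Opcml, 30.1 for Negr1 and 3.68 for Iglon5. The same pooled measure over e15.5 proprioceptors was 193 CPM for Lsamp, 184 for Ntm, 64.1 for Opcml, 28.1 for Negr1 and 15.5 for Iglon5. Negr1 in the wells under the threshold thus lay near its level in proprioceptors, and below the 72.8 CPM pooled over the other sensory neurons of that age.

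At e15.5 the other sensory neurons differed from proprioceptors in 3 of the 5 IgLON genes. Part of these other wells were rich in connective tissue or glial genes, as given below. Lsamp had 22.5 to 175 CPM (median 92.8) in the other neurons of the 10 libraries, against 148 to 304 CPM (median 187) in proprioceptors, and 5 of 10 proprioceptor sums lay above all others. Its level was 1.99-fold higher in proprioceptors (log2 0.99 ± 0.21, adjusted p = 0.00125). Negr1 went the other way, with 0 to 147 CPM (median 51.9) in the other neurons and 15.4 to 41.9 CPM in proprioceptors, where it was 2.53-fold lower (log2 -1.34 ± 0.29, adjusted p = 0.00116). The Negr1 ranges overlapped fully, and the 0 came from library 6, whose 5 other neurons allow up to 22.5 CPM.

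Iglon5 had 0 to 19.4 CPM (median 9.48) in the other neurons and 11.7 to 26.1 CPM in proprioceptors, and 1 proprioceptor sum lay above all others. The 0 values were those of libraries 6 and 7, which allow up to 22.5 and 7.74 CPM. It was called 1.69-fold higher in proprioceptors (log2 0.76 ± 0.26, adjusted p = 0.0342), and this call was lost with a library block (adjusted p = 0.0804), without wells rich in glial genes (0.136), and without library 2, 4, 6, 7, 9 or 10 (0.0540 to 0.0816).

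Ntm and Opcml did not pass the test between these classes. Ntm had 87.8 to 431 CPM (median 219) in the other neurons, and the difference was log2 -0.42 with an interval of 2 SE from -1.19 to 0.34 (adjusted p = 0.438). Opcml had 22.3 to 139 CPM (median 63.7), and the difference was log2 -0.49 with an interval from -1.50 to 0.53 (adjusted p = 0.508). Ranges overlapped for both, although 3 of 10 proprioceptor sums lay below all others for each gene.

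**Figure D2:**
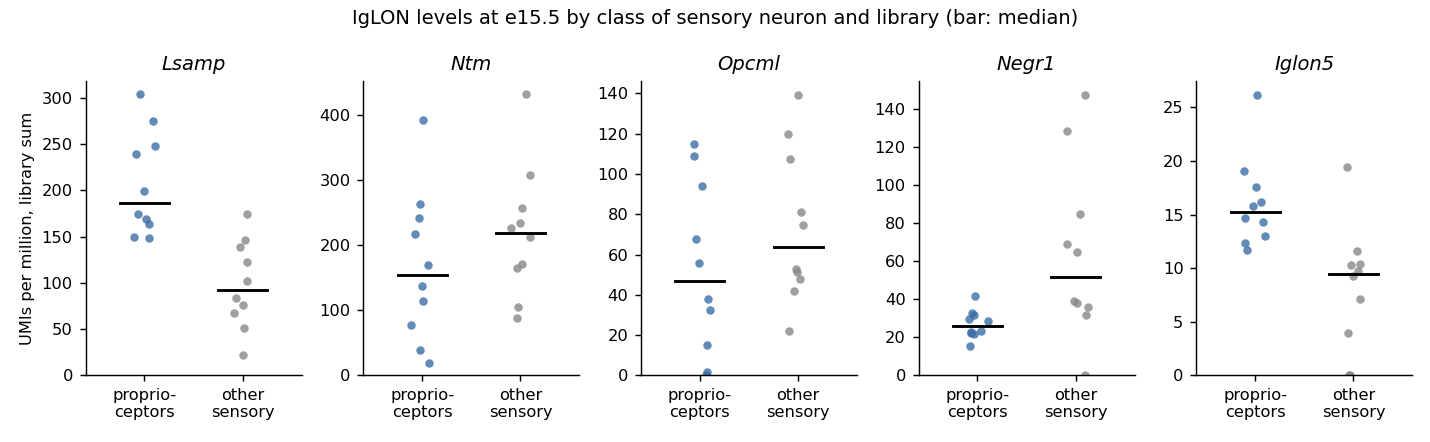
Each panel plots 1 IgLON gene at e15.5 in CPM (linear axis from 0, scaled per gene), with 1 point per library for proprioceptors and 1 for the other sensory neurons and the median as a bar. Lsamp medians are 187 and 92.8, and Negr1 medians are 26.2 and 51.9.

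Of 10958 genes tested between these classes, 14.1% were called higher in proprioceptors, against 2 of 5 IgLON genes, and 15.4% lower, against 1 of 5. The median log2 fold change was -0.42 over the IgLON genes and -0.02 over all. Sensory neuron genes summed to 353 to 6101 CPM over libraries in the other neurons, against 4841 to 5901 CPM in proprioceptors. Glial genes summed to 21.9 to 3896 CPM and connective tissue genes to 26.6 to 25178 CPM in the other neurons, of which 37 of 94 wells passed 2000 CPM of glial genes and 36 of 94 passed 2000 CPM of connective tissue genes. In libraries 6 and 7, which gave the 0 values above, the median other neuron had 23653 and 16280 CPM of connective tissue genes. Without the wells rich in glial genes Negr1 was at log2 -1.66 (adjusted p = 7.36e-06) and Lsamp at 0.89 (0.0137). Without those rich in connective tissue genes, left out after seeing the data, they were at -1.69 (5.19e-06) and 0.70 (0.0147).

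Among the other neurons, 23 e15.5 wells with at least 500 CPM of mechanoreceptor genes (Ntrk2, Maf, Mafa, Ret, Necab2) had pooled levels of 243 CPM of Ntm, 107 of Opcml, 114 of Lsamp, 94.2 of Negr1 and 10.4 of Iglon5. Libraries 3, 5 and 9 had 5, 3 and 6 of these wells, the remainder came from libraries with too few for a sum, and no test was made.

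Proprioceptors were next divided by Tox and Gabrg1, which the study took from clusters of the p1 neurons as markers of back and hindlimb proprioceptors. At both ages the study also found Tox in proprioceptors traced from back muscles and Gabrg1 in those traced from hindlimb muscles. A well was put in the Tox class with at least 2 Tox UMIs and over 3 times the Gabrg1 UMIs, and in the Gabrg1 class by the reverse, which gave 129 and 45 wells at e15.5 and 107 and 74 at p1, with 166 and 174 in neither. The muscle of a neuron is not known here, and because the 2 genes came from p1 clusters made with all genes, the p1 values are not independent of that choice. The 5 candidate muscle-type genes of the study (Tox, Epha3, Gabrg1, Efna5, C1ql2) summed to 65.9 to 136 CPM across e15.5 and 122 to 365 CPM across p1 proprioceptor libraries.

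At e15.5 Ntm and Opcml were far lower in the Tox class than in the Gabrg1 class. Ntm had 21.96 to 131 CPM (median 60.1) in the Tox class of 9 libraries, and 702, 166, 317, 428 and 399 CPM in the Gabrg1 class of libraries 6 to 10. The groups did not overlap, and Ntm was 5.43-fold lower in the Tox class (log2 -2.44 ± 0.41), given with no test since Ntm had led a group of these same wells. Opcml had 0 to 41.0 CPM (median 9.94) in the Tox class and 237, 53.6, 149, 179 and 159 CPM in the Gabrg1 class. These groups did not overlap either, and Opcml was 10.96-fold lower in the Tox class (log2 -3.45 ± 0.37, edgeR adjusted p = 8.33e-07). It had 0 UMIs in the 5 Tox-class wells of library 3, which allows up to 4.76 CPM. Opcml moved with Ntm in single e15.5 proprioceptors (median Spearman correlation within libraries 0.713). Its p is therefore not independent of the choice of the family through Ntm. The share of all genes whose classes did not overlap was not counted.

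Both differences were present within libraries. In libraries 7, 8, 9 and 10, which had sums of both classes, Ntm was at 21.96, 60.1, 93.1 and 131 CPM in the Tox class against 166, 317, 428 and 399 in the Gabrg1 class. Opcml was at 1.57, 13.96, 15.6 and 41.0 CPM against 53.6, 149, 179 and 159. Each was higher in the Gabrg1 class in 4 of 4 libraries, and the Opcml call held with a library block (adjusted p = 0.000109). Glial genes, at 643 CPM in the Tox class and 282 CPM in the Gabrg1 class, also differed, and the Opcml call was kept without the wells rich in them.

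Lsamp, Negr1 and Iglon5 did not pass at e15.5. Lsamp had 148 to 264 CPM (median 187) in the Tox class and 47.8, 137, 242, 198 and 117 CPM in the Gabrg1 class, an overlapping difference of log2 0.37 with an interval from -0.17 to 0.91 (adjusted p = 0.601). Within libraries it was higher in the Gabrg1 class in 2 of 4, and with a library block the difference was -0.018. Negr1 differed by log2 -0.71 (interval -1.28 to -0.14, adjusted p = 0.189) and was higher in the Gabrg1 class in 4 of 4 libraries, while Iglon5 differed by 0.44 (interval -0.37 to 1.26, adjusted p = 0.718). Of 11914 genes tested, 1.99% were called higher and 2.45% lower in the Tox class. Of the IgLON genes 0 of 5 were called higher. Opcml was called lower, also by DESeq2, and Negr1 had an unadjusted edgeR p under 0.05. No call is counted for Ntm, which had led a group of these same wells. The Opcml call is not independent of the choice of the family through Ntm, so it is not weighed against these shares. The median log2 fold change was -0.71 over the IgLON genes and 0.00174 over all genes.

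At p1 the difference in Opcml between the classes was smaller than at e15.5. Opcml had 206 to 324 CPM (median 292) in 6 Tox-class sums and 212, 354, 219 and 374 CPM in the Gabrg1 class of libraries 1, 2, 4 and 5. Its ranges overlapped and the difference was log2 -0.18 with an interval from -0.90 to 0.55 (adjusted p = 1). The change of the Opcml difference between ages was itself tested, and passed at log2 3.28 ± 0.53 (adjusted p = 0.00282), called with every library left out (adjusted p up to 0.0147) and with the block (0.0132). This test uses the e15.5 class values of Opcml, so it is not independent of the choice of the family through Ntm.

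Ntm had 189 to 527 CPM (median 332) in the p1 Tox class and 52.3, 998, 756 and 1308 CPM in the Gabrg1 class. It was higher in the Gabrg1 class in 3 of 4 libraries, library 1 with its 6 Gabrg1-class wells being the exception, and the difference was log2 -1.25 with an interval from -2.18 to -0.33 (adjusted p = 0.239). Lsamp had 236 to 535 CPM (median 462) in the Tox class and 370, 149, 76.4 and 206 CPM in the Gabrg1 class. It was higher in the Tox class in 4 of 4 libraries, with log2 1.09 and an interval from 0.46 to 1.72 (adjusted p = 0.0774). Without p1 library 1 both passed (Ntm -1.49, adjusted p = 0.0170 and Lsamp 1.54, adjusted p = 0.00816), and Lsamp also without e15.5 library 6 (0.0368).

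No IgLON gene was called between the p1 classes by edgeR, 0 of 5 against 0.487% of all genes higher and 1.18% lower in the Tox class. At an unadjusted p under 0.05 there were 3 of 5 (Lsamp, Ntm and Negr1), and DESeq2 called 0. The median log2 fold change was -0.18 over the 5 and 0.00193 over all genes. In the test of the change between ages, where 0.0588% of genes were called higher and 0.134% lower, Opcml was the 1 IgLON gene of 5 called. Lsamp (0.72, adjusted p = 0.818), Negr1 (-0.18, adjusted p = 1.00) and Iglon5 (-0.19, adjusted p = 1.00) did not pass. Ntm changed by 1.19, given with no test since it uses the e15.5 class levels of Ntm.

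**Figure D3:**
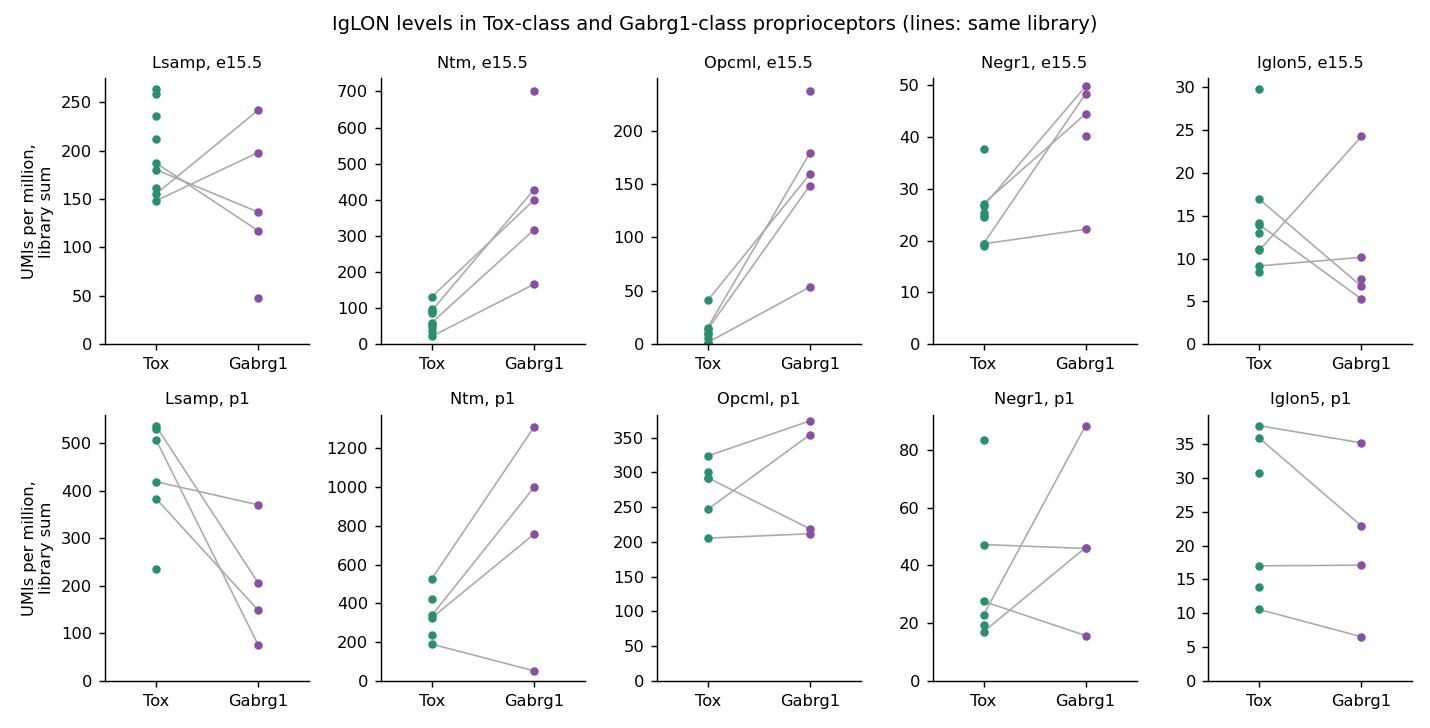
Each panel plots 1 IgLON gene at 1 age in CPM (linear axis from 0, scaled per panel), with 1 point per library for the Tox class and the Gabrg1 class and grey lines joining sums of the same library. Ntm and Opcml rise along all 4 lines at e15.5, and at p1 Lsamp falls along all 4 while Opcml ranges overlap.

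Ntm and Lsamp were found together in many single proprioceptors and apart in others. At 10000 UMIs per well, 123 of 340 e15.5 proprioceptors (36.2%) had a UMI of both, 60 (17.6%) of Ntm only, 109 (32.1%) of Lsamp only and 48 (14.1%) of neither. At p1, 273 of 355 (76.9%) had both, 36 (10.1%) Ntm only, 43 (12.1%) Lsamp only and 3 (0.845%) neither. The share with both ran from 11.1% to 44.9% (median 34.8%) over e15.5 libraries and from 63.9% to 96.2% (median 78.6%) over p1 libraries, which did not overlap.

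Over all proprioceptors at this depth, with 1 UMI as the limit, the number with both was close to that given by the separate shares of the 2 genes within each library. It was 123 wells against 122 at e15.5 and 273 against 273 at p1, and the Mantel-Haenszel odds ratio over libraries was 1.04 and 0.976. The direction depended on depth and limit. With at least 2 UMIs of each gene, 40 e15.5 wells had both against 48.1 from the separate shares (odds ratio 0.608), while without thinning the odds ratio was 2.29, or 1.54 with at least 2 UMIs. At p1 it was 0.902 with at least 2 UMIs and 2.28 with at least 2 UMIs without thinning, where 2 wells had neither. Leaving out 1 library gave 0.888 to 1.15 at e15.5 and 0.638 (without library 2) to 1.21 at p1. Fewer wells than that product had both in 3 of 10 e15.5 and 3 of 6 p1 libraries. Without thinning, 74.7% of e15.5 and 94.9% of p1 wells had both.

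**Figure D4:**
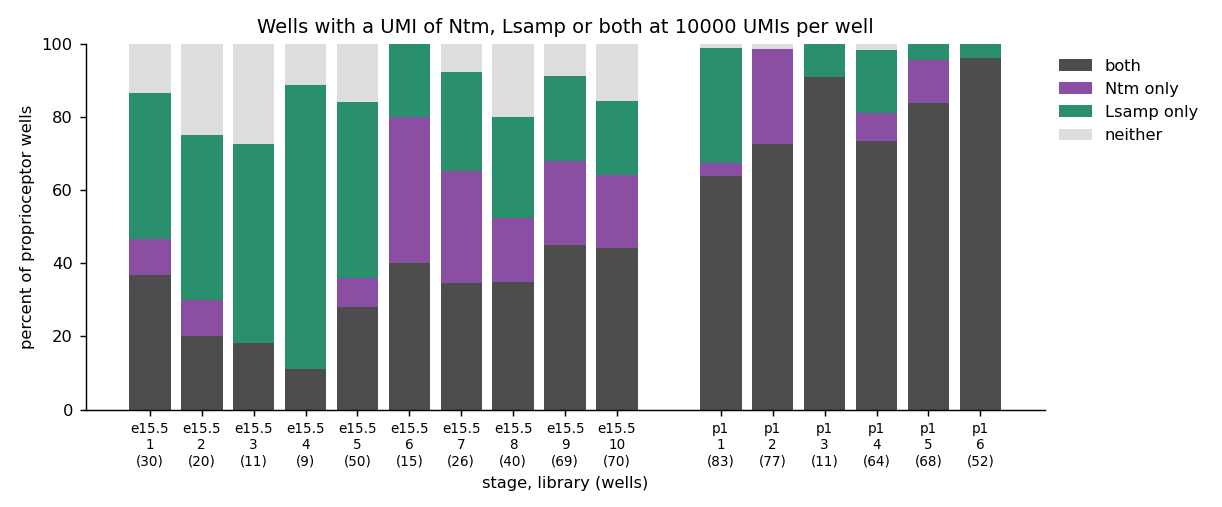
Stacked bars give, for each library, the percent of proprioceptor wells with a UMI of both Ntm and Lsamp, Ntm only, Lsamp only or neither, at 10000 UMIs per well, with the number of wells in brackets. The share with both lies between 11.1% and 44.9% at e15.5 and between 63.9% and 96.2% at p1.

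The exclusive wells were spread unevenly over the classes. Many of the 60 e15.5 wells with Ntm only and the 109 with Lsamp only were in neither class. In the Tox class, e15.5 wells with Ntm only numbered 7 of 129, against 52 with Lsamp only, 46 with both and 24 with neither. In the Gabrg1 class they numbered 15 of 45, against 10 with Lsamp only, 19 with both and 1 with neither. At p1 the Tox class had 90 wells with both, 16 with Lsamp only, 1 with Ntm only and 0 with neither, and the Gabrg1 class 48 with both, 23 with Ntm only, 2 with Lsamp only and 1 with neither. The odds ratio within libraries at e15.5 was 2.90 in the Tox class, 0.134 in the Gabrg1 class, where it rests on the 1 well with neither, and 3.50 in other sensory neurons. At p1 it was 0 in the Tox class, which had no well with neither, and 1 in the Gabrg1 class, which had 1 such well. These p1 values therefore cannot be ordered or set against those at e15.5. Other sensory neurons at e15.5 had both in 34, Ntm only in 25, Lsamp only in 10 and neither in 25 of 94 wells.

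Exclusive wells can lack a gene or lack depth, so the balance of the 2 genes was also read in proprioceptors with at least 20 UMIs of Ntm and Lsamp together, at full depth. At e15.5, Ntm made up under 10% of these UMIs in 59 of 212 wells, over 90% in 34 and a share between in 119. In the Tox class these were 22, 1 and 51 of 74 wells, with a median Ntm share of 29.9%. In the Gabrg1 class they were 6, 16 and 15 of 37 wells, with a median of 88.2%.

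At p1, wells under 10% Ntm fell to 11 of 281, those over 90% numbered 47, and 223 lay between. The Tox class had 1, 0 and 94 of 95 wells in these ranges, with a median share of 36.5%, and the Gabrg1 class 2, 36 and 30 of 68, with a median of 90.7%. At 100 CPM of each gene as the limit, the p1 Gabrg1 class had 41 wells with both genes, 27 with Ntm but not Lsamp, 5 with Lsamp but not Ntm and 1 with neither, and the p1 Tox class had 94, 0, 13 and 0. At e15.5 that limit gave 9, 24, 11 and 1 Gabrg1-class wells and 38, 3, 59 and 29 Tox-class wells. Of the 74 e15.5 and 37 p1 wells with Ntm but not Lsamp at this limit, 24 and 27 were of the Gabrg1 class, 3 and 0 of the Tox class, and 47 and 10 of neither.

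**Figure D5:**
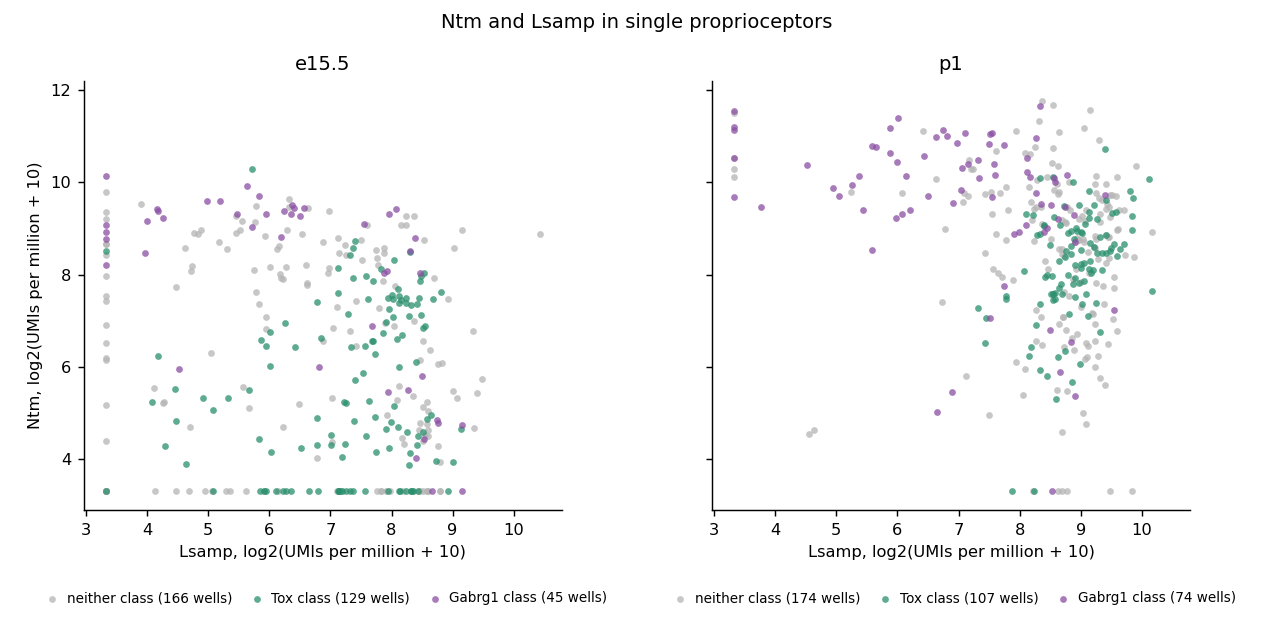
Each point is 1 proprioceptor, with Lsamp on the x axis and Ntm on the y axis as log2(CPM + 10), at e15.5 (340 wells) and p1 (355 wells), coloured by class, and points on the lowest value of an axis have no UMI of that gene. Gabrg1-class wells of low Lsamp lie high on the Ntm axis, with Ntm but not Lsamp over 100 CPM in 24 of 45 wells at e15.5 and 27 of 74 at p1, other Gabrg1-class wells of high Lsamp lie low on it (11 and 5 with Lsamp but not Ntm over 100 CPM), and at p1 the Tox class gathers at high Lsamp, with both genes over 100 CPM in 94 of 107 wells.

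Of the 10 pairs of IgLON genes, Ntm and Opcml moved together most closely in single e15.5 proprioceptors. Their Spearman correlation of log2(CPM + 10), taken over wells within each library of at least 10 wells, had a median of 0.713 and a range of 0.536 to 0.807 over 8 libraries. Another library had no Opcml UMI and gave no value. The median was 0.524 in thinned wells and 0.675 without wells rich in glial genes. At 100 CPM, 71 e15.5 proprioceptors had both genes, 85 Ntm but not Opcml and 5 Opcml but not Ntm. At p1 the median was 0.249 (0.0403 to 0.691 over 6 libraries), and 0.0664 in thinned wells, with 2 of 6 libraries below 0. Wells of a library share its preparation and differ in depth, so these values are descriptions with no test.

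Ntm and Lsamp had a median correlation of -0.274 over 9 e15.5 libraries, from -0.515 to 0.184 with 4 above 0 and 5 below, and of -0.0815 over 6 p1 libraries. It was -0.0763 in thinned e15.5 wells and -0.0219 without wells rich in glial genes. Lsamp and Opcml had -0.251 at e15.5 and 0.263 at p1, and -0.0912 and 0.150 in thinned wells.

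Among 7081 genes of at least 20 CPM ranked by likeness to Ntm within e15.5 libraries, Opcml was first, followed by the growth factor Igf1 (0.531, and 0.144 at p1), Hip1 (0.489, 0.128), the actin regulator Enah (0.484, 0.289) and the G-protein signalling regulator Rgs4 (0.470, 0.190). Among the lowest were Hap1 (-0.472, and -0.114 at p1), the myelin gene Mbp (-0.458, -0.136), Zfhx3 (-0.434, -0.257) and the secretogranin Scg2 (-0.421, -0.228). For Lsamp the highest were Cntnap4 (0.418, and 0.156 at p1), Gtf3c1 (0.414, -0.0161), Fstl5 (0.413, 0.0301), the RNA-binding Celf4 (0.406, 0.110) and Wls (0.399, 0.296), a carrier of Wnt proteins. The lowest were Vstm2b (-0.422, -0.285), the contactin Cntn4 (-0.403, -0.257), the potassium channel subunit Kcnab1 (-0.369, -0.261), Ap1s2 (-0.360, 0.0398) and the neurofilament gene Nefl (-0.355, -0.223). These correlations depended on depth, and in wells thinned to 10000 UMIs every named gene lay nearer 0 at e15.5. With Ntm, Igf1 was then at 0.450, Rgs4 at 0.306, Hip1 at 0.262 and Enah at 0.145, and Hap1 at -0.320, Scg2 at -0.261, Mbp at -0.222 and Zfhx3 at -0.0942. With Lsamp the highest genes ran from 0.115 (Fstl5) to 0.285 (Celf4), and the lowest from -0.247 (Vstm2b) to -0.0867 (Nefl), with Cntn4 at -0.131.

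The remaining GPI-anchored immunoglobulin adhesion genes, contactins, Mdga1, Mdga2 and Thy1, moved in both directions between ages. Of 8 tested, 4 rose and 2 fell at p1 (30.6% and 32% over all genes), the former led by Cntn3 (log2 2.35, adjusted p = 4.17e-07), Thy1 (1.91, 1.88e-08) and Mdga2 (1.62, 7.00e-07), the latter being Mdga1 (-1.65, 2.24e-08) and Cntn2 (-0.41, 0.0222), with a median of 0.60. Of 19 transmembrane adhesion genes tested, 14 rose against that 30.6%, led by Cadm2 (1.71, 2.05e-08), Sdk2 (1.61, 7.77e-06) and Mcam (1.49, 3.31e-08), and 2 fell against 32%, Kirrel3 (-1.26, 3.48e-10) and Nrcam (-0.99, 2.47e-05), with a median of 0.70. Of 5 tested genes that act on or with IgLON proteins, 1 rose and 3 fell against the same shares. The receptor Fgfr1 rose (1.10, 1.34e-06), while the sheddase Adam10 (-0.80, 1.52e-06) and the GPI-anchor enzymes Piga (-0.63, 0.0142) and Gpaa1 (-0.45, 0.00264) fell, with a median of -0.45.

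Between proprioceptors and other sensory neurons at e15.5, where 14.1% of all genes were higher and 15.4% lower in proprioceptors, 2 of 7 GPI-anchored genes were higher in proprioceptors (Mdga1 2.83, adjusted p = 2.06e-10, Thy1 1.75, 0.000629) and 2 lower (Cntn4 -0.98, 0.0435, Cntn5 -0.68, 0.0259), with a median log2 fold change of 0.34, and Cntn5 was lost with a library block (0.0799). Of 19 transmembrane genes 5 were higher and 5 lower, both larger shares than over all genes. The higher ones were led by Kirrel3 (3.38, 4.43e-10), Igsf21 (1.90, 0.000436) and Nectin1 (1.53, 1.03e-07), and the lower ones by Chl1 (-3.96, 3.10e-06), Sdk1 (-2.29, 1.33e-06) and Nectin3 (-2.003, 5.04e-07), with a median of 0.07. Of 5 IgLON-acting genes 0 were higher and 3 lower (Fgfr1 -1.44, 3.71e-06, Adam10 -1.17, 3.00e-07, Piga -1.09, 0.0144), with a median of -1.09.

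Between the Tox and Gabrg1 classes at e15.5, where 1.99% of all genes were higher and 2.45% lower in the Tox class, 2 of 8 GPI-anchored, 1 of 19 transmembrane and 0 of 4 IgLON-acting genes were called. Thy1 was higher (1.30, adjusted p = 0.000370) and Cntn2 lower (-0.89, 0.000984) in the Tox class among 8 GPI-anchored genes, the adhesion gene Chl1 was higher (3.397, 0.0427) among 19 transmembrane genes, and no IgLON-acting gene was called by edgeR or DESeq2, with 0 at an unadjusted p under 0.05. With a library block these e15.5 calls were lost (edgeR adjusted p = 0.0588 for Thy1, 0.118 for Cntn2 and 0.466 for Chl1). At p1 Igsf21 was higher (1.87, 0.00536) and Ncam1 (-1.36, 0.000502) and Cadm2 (-1.09, 0.00395) lower among the 19 transmembrane genes, against 0.487% and 1.18% of all genes, and with the block Cadm2 was lost (0.142). No GPI-anchored or IgLON-acting gene was called at p1 by edgeR or DESeq2 (0 of 8 and 0 of 4), with 2 and 1 at an unadjusted p under 0.05. Medians over the 3 lists lay between -0.18 and -0.01 at e15.5 and between -0.19 and -0.13 at p1. In the change between ages, where 0.0588% of all genes were called higher and 0.134% lower, edgeR called 0 in these 3 lists, DESeq2 called 3 transmembrane genes, and 2, 6 and 0 had an unadjusted p under 0.05 among GPI-anchored, transmembrane and IgLON-acting genes.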

How the data were processed

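Single wells of 10 e15.5 and 6 p1 CEL-Seq2 libraries were analysed from the UMI counts per gene and well as deposited. The authors made these counts with the scruff package, per the paper's methods, which demultiplexed, mapped and counted reads. The submitters' processing notes name mm10 and GRCm38 without a role. The counting annotation and strand setting were not stated in the labels, file headers or methods read. Ensembl identifiers were paired with symbols through GENCODE (49326 of 49671 genes), and all 5 IgLON genes matched.

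Samples were grouped by the age in the labels, and library numbers were taken from the titles. UMIs were summed per library over wells of a class (at least 5 wells between ages, at least 3 otherwise) and tested with edgeR 4.0.16 (R 4.3.3): filterByExpr, TMM, quasi-likelihood test, Benjamini-Hochberg over all genes tested, threshold 0.05. The 4 age-by-class groups of Tox and Gabrg1 sums shared 1 fit. DESeq2 1.42.0 was an alternative. The tests between ages, between neuron classes and between the e15.5 Tox and Gabrg1 classes were tried on simulated data. The p1 class test, the change between ages and the ages within a class were not. For shares of wells, wells were thinned to 10000 UMIs with a fixed seed in Python 3.11.15. Correlations used log2(CPM + 10) within libraries. Intervals are 2 SE. Limits given for a count of 0 are 3 UMIs of the sum's total and cover counting error only.

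All 5 members are named in every comparison. For likeness, the 5 highest and 5 lowest genes at e15.5 are named, and for the other lists the 3 called genes with the largest change in each direction. One gene of the lowest likeness to Ntm and the values of wells chosen by nociceptor genes are not reported here. The members, lists and tests were chosen with earlier results of these data known. Both class sums of a library come from 1 preparation, so library numbers pair them: deviations of same-library sums had a median correlation of 0.25 (0.024 to 0.71) for proprioceptors against other sensory neurons, 0.28 at e15.5 and 0.12 at p1 (-0.17 to 0.33) for Tox against Gabrg1. The main tests did not use this pairing, and fits with a library block are given where they change a call. Promoter windows are from RefSeq, without bases inside annotated exons, which left none for Opcml and Negr1. Doublets were not called, and wells rich in glial, connective tissue or other sensory genes were left in except where stated (38, 8, 16 and 18 of the e15.5 proprioceptors passed the limits of 2000 CPM for glial and connective tissue genes and 500 CPM for nociceptor and mechanoreceptor genes, and 8, 8, 10 and 6 at p1).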

Additional observations from a re-analysis of the deposited data

Results flagged for a closer look

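A library stood apart from the others of its group in 5 of 41 groups of libraries examined, where chance gives about 1 in 20. Iglon5 was 24.3 CPM in the Gabrg1 class of e15.5 library 7 (next highest 10.1 of 5 libraries), 29.8 CPM in the Tox class of e15.5 library 2 (next 16.9 of 9) and 26.1 CPM in all proprioceptors of e15.5 library 2 (next 19.1 of 10). Negr1 was 37.8 CPM in the Tox class of e15.5 library 1 (next 27.2 of 9). Opcml was 41.0 CPM in the Tox class of e15.5 library 10 (next 15.6 of 9), still below the lowest Gabrg1-class sum of 53.6 CPM. These libraries held from 6 to 25 wells in the class concerned or 20 in all.

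The difference in Opcml between the Tox and Gabrg1 classes changed between the ages by 3.28 on the log2 scale, which passed the edgeR test of that change itself (adjusted p = 0.00282). It was -3.45 at e15.5 and -0.18 at p1. The e15.5 value is not independent of the choice of the family through Ntm, with which Opcml moved.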

How the results depend on the processing

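Of 191 values of single IgLON genes under other settings, 180 kept their direction and side of the threshold, 5 lost and 4 gained a call and 2 reversed, and with 1 library left out these were 358 of 370, 6, 3 and 3. Between ages the 8729 genes called became 4252 in wells thinned to 10000 UMIs (7719 genes tested) and 4982 in Gabrg1-class wells. There 3 of the 5 IgLON genes were called, with Ntm among them as no independent call. Between proprioceptors and other sensory neurons the 3230 called became 4881 with no filter on low counts and 1087 in thinned wells, where 1 IgLON gene was called and Opcml, Negr1 and Iglon5 had too few UMIs to be tested. Between Tox and Gabrg1 classes at e15.5 the 529 called became 112 in thinned wells, and at p1 the 198 called became 302 with no filter and 28 in thinned wells, with 2 IgLON genes called in each (Lsamp 1.09, adjusted p = 0.00645 and 1.22, 0.0327, Ntm -1.26, 0.0364 and -1.60, 0.0185). The 23 genes called for the change between ages became 78 with DESeq2, 91 with no filter, 4 in thinned wells and 40 in sums of at least 5 wells.

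With a library block the Tox and Gabrg1 counts were 250 at e15.5, 45 at p1 and 8 for the change between ages, Lsamp at e15.5 was at -0.018 in place of 0.37, Negr1 in the change between ages was at 0.051 in place of -0.18, and Iglon5 between neuron classes was lost. No other call on an IgLON gene changed. Ages share only a library number (median correlation of same-numbered deviations -0.23 over 6 pairs), and blocking on it gave 6882 genes called, the 5 IgLON genes included.

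Leaving out 1 library gave 299 (without e15.5 library 8) to 583 genes at e15.5, 59 (without p1 library 5) to 305 (without p1 library 1) at p1 with 0 to 2 IgLON genes called, and 9 (without e15.5 library 8 or p1 library 5) to 49 (without e15.5 library 4) for the change between ages. These counts also moved by over 1.5 times without library 9 at e15.5 (341), without library 2 (70) or 6 (124) at p1, and in the change between ages without e15.5 library 9 (13) or p1 library 1 (47), 2 (13) or 6 (13). In that change Negr1 ranged from -0.48 to 0.34 and Iglon5 from -0.64 to 0.11, the highest without p1 library 5, and Iglon5 was at 0.018 without e15.5 library 9. The cause of these changes was not tested, except that thinned and block fits use fewer UMIs or residual degrees of freedom.

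The share of wells with both Ntm and Lsamp was 74.7% at full depth, 11.8% with at least 2 UMIs of each and 58.5% with both settings (added after seeing the data) at e15.5, and 94.9%, 56.1% and 89.9% at p1. The correlation of Ntm with Lsamp at e15.5 was -0.0219 without wells rich in glial genes, and that with Opcml 0.524 in thinned wells. Depth limits Negr1 and Iglon5 most, with a UMI in 36.9% and 27.9% of p1 proprioceptors at 10000 UMIs.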

Other observations

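At p1 only 10 wells by the rule were other sensory neurons, too few for a comparison over libraries. Summed over these wells, Ntm was at 960.3 CPM, Negr1 at 265, Opcml at 263, Lsamp at 136 and Iglon5 at 27.0, while the 355 p1 proprioceptors had pooled levels of 537, 39.3, 287, 377 and 25.1 CPM of the same genes. The 7 of them with at least 500 CPM of mechanoreceptor genes had 302 CPM of Negr1 and 1011 CPM of Ntm. Of the 10 wells 6 came from library 2, and no test was made.

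The proprioceptor libraries differed in class make-up and in Ntm. At e15.5, libraries 1 to 5 had 0% to 6.67% of their proprioceptors in the Gabrg1 class and 19.2 to 137 CPM of Ntm. Libraries 6 to 10 had 14.3% to 23.1% in that class and 170 to 392 CPM of Ntm. No label divides the libraries this way. The sets follow the values, so the gap between them is a description with no test. Within each of these sets, and at p1, the Gabrg1-class share and Ntm did not follow 1 order. The e15.5 library with the highest Ntm, library 6 at 392 CPM, had 20% of its 15 proprioceptors in the Gabrg1 class and 13.3% in the Tox class, and the one with the lowest, library 3 at 19.2 CPM, had 0 of 11 in the Gabrg1 class and 45.5% in the Tox class. Library 7, with the highest Gabrg1 share of that age (23.1%), was at 217 CPM of Ntm, below libraries 6, 9 and 10 (20%, 21.7% and 14.3%). At p1, library 1 had 171 CPM with 7.23% of its proprioceptors in the Gabrg1 class, library 2 had 908 CPM with 62.3% and library 5 had 909 CPM with 22.1%. Library 6 had 469 CPM with 0% in that class, above libraries 1, 3 and 4 with 6.25% to 9.09%.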
